A study of Mus musculus with 10 samples.

Results

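The MAP kinase phosphatases are the dual-specificity phosphatases of the DUSP family that switch off MAP kinases. The 8 examined here, Dusp1, Dusp2, Dusp4, Dusp5, Dusp6, Dusp7, Dusp10 and Dusp16, were taken as every probe set that the platform annotation gives to exactly 1 of these symbols. This gave 12 probe sets of 45101 on the array, for 8 of 18193 named genes, and 0 further probe sets shared a member with another gene. All 8 genes passed the filter that left out the dimmest 30% of genes, below 4.59 log2 units. The choice rested on gene family and not on measured values, but it was made with earlier results of these data known.

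The samples were T cell acute lymphoblastic leukemia (T-ALL) cells of mouse, driven by ICN1, the activated intracellular part of NOTCH1. All 10 samples carried the ROSCreERT2 transgene, a Cre recombinase that tamoxifen activates, and 2 floxed copies of CnB1, the gene of the regulatory subunit of calcineurin (current symbol Ppp3r1). Leukemic secondary recipients received tamoxifen (TAM, 5 arrays), after which CnB1 is deleted, or only its corn oil carrier (OIL, 5 arrays), which leaves CnB1 in place. A fluorescent marker served to sort leukemic cells from marrow in which they exceeded 50%. No group received tamoxifen without floxed CnB1, so the drug and the deletion cannot be told apart here. Each group holds 1 array of each label 204, 206, F3.1, F3.2 and F3, which pair the groups, and the number after F3.1 and F3.2 that differs between the groups was dropped. The sources used here do not give mouse ages, the time between tamoxifen and sampling, or whether each array is a separate mouse, so p-values measure the spread between these samples, which may be technical. Whether the labels stand for separate primary leukemias is also not given there.

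MAP kinases are activated by phosphorylation of a threonine and a tyrosine, and MAP kinase phosphatases remove both phosphates. Several of their genes are themselves switched on by ERK signalling, so their transcripts are known as negative feedback genes and are often read beside ERK activity. They differ in where they act and on what: DUSP1, DUSP2, DUSP4 and DUSP5 are nuclear, DUSP6 and DUSP7 are cytoplasmic and prefer ERK, and DUSP10 and DUSP16 prefer JNK and p38. The classes overlap, since DUSP1, grouped here with the nuclear ERK phosphatases, also acts strongly on p38 and JNK. In T cells the T cell receptor activates ERK and, through calcium, calcineurin.

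The windows around the start sites of 7 members were in the RefSeq promoter table (GRCm38.p6, 250 bases before to 50 after the start site). Those of Dusp5, Dusp1 and Dusp6 are shown because each of these genes had TAM arrays entirely above the OIL arrays. Capitals mark CArG boxes, the sites of serum response factor, in Dusp5 (chr19:53528895-53529194, plus strand), the cAMP response element in Dusp1 (chr17:26508423-26508722, minus strand) and the NFAT core in Dusp6 (chr10:99262981-99263280, plus strand), each written 5′ to 3′ on the gene's strand.
Dusp5: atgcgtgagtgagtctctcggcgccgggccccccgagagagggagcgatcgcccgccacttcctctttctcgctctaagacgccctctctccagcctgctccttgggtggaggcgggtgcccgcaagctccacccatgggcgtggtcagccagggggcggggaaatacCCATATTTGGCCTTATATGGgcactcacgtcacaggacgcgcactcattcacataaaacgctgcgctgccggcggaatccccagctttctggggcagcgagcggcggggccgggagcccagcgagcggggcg
Dusp1: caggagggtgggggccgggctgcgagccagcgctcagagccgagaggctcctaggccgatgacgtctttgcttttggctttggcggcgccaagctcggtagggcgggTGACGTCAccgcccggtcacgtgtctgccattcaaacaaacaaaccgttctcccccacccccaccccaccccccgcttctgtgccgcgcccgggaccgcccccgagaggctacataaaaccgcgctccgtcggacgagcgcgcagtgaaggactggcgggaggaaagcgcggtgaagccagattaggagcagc
Dusp6: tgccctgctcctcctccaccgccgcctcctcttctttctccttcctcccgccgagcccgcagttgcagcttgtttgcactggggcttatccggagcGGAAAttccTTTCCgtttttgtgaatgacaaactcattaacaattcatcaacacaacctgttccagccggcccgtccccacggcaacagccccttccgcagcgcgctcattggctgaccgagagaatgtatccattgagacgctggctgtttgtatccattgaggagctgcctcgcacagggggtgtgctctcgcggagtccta

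The motifs were searched on both strands. The Dusp5 window held 2 adjacent CArG boxes, at positions -82 to -73 and -72 to -63 from the start site at 0. A CArG box was present in 1.63% of all 32851 windows, and 2 or more in 0.018%. The Dusp1 window held the cAMP response element TGACGTCA at -143 to -136, found in 1.79% of all windows. The NFAT core GGAAA was in the windows of Dusp16, Dusp6, Dusp1 and Dusp5, 4 of 7, against 61.34% of all windows. Dusp6 had it at -154 to -150 and, on the other strand, at -145 to -141. The RBPJ site TGGGAA of NOTCH signalling, which can share letters with the NFAT core, was in the Dusp2 window only, against 25.56% of all, and the AP-1 site TGANTCA was in 0 of 7, against 7.81%. A match is a description of these letters and does not show that a factor binds.

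The first principal component of the tested genes, with 41.9% of the variance, separated the arrays labelled 204 and 206 from the 3 F3 labels, and the second, with 18.0%, separated TAM from OIL apart from OIL F3. That array lay at 6.90 on the second component, among the TAM arrays at 4.04 to 22.67, while the other OIL arrays lay at -8.33 or below. Differences are therefore also given without it. This array was picked from these same data and was the highest OIL array for Dusp4, Dusp5, Dusp6 and Dusp10. Leaving it out therefore raises the differences of these genes by construction. T lineage markers were measured in every sample, from Cd3d at 12.53 to 13.00 log2 units to Cd4 at 6.19 to 7.94, with Cd8a between 7.79 and 11.25. Of 13 tested, 0 were called without a block and Cd28 rose with it (0.56, limma adjusted p = 0.0348), as did 1.65% of all genes. Of 8 B lineage markers 5 had a mean below the dim limit, among them Cd79a, while Igll1 read 5.47 to 6.66 in OIL and 5.54 to 6.76 in TAM and Pax5 reached 5.64. Of the 3 tested 0 were called, and the summed signal of the list was 7.67 to 8.0 in OIL and 7.51 to 8.02 in TAM. Granulocyte markers were present at uneven levels. Their summed signal ran from 8.07 to 10.51 log2 units in OIL and from 8.73 to 11.41 in TAM, and 0 of 7 tested were called. S100a8, a neutrophil calcium-binding protein, was brightest in the F3 arrays, at 9.11 with OIL and 10.07 with TAM. Monocyte, erythroid, megakaryocyte, NK and stromal marker lists also had 0 called in either fit. In the NK list Gzma was bright, at 12.45 to 12.94 in OIL and 12.56 to 13.31 in TAM. Prf1 of the same list read 5.16 to 5.43 in OIL and 5.05 to 5.84 in TAM. Stromal markers were uneven, with Col1a2 between 4.72 and 9.29 in OIL and between 4.49 and 10.24 in TAM. The part of these cells in the results was not tested. Fewer cells of a type and less RNA per cell cannot be told apart in such bulk samples. The 3′ minus 5′ signal of the beta-actin control probe sets was alike, at 0.47 ± 0.10 with OIL and 0.47 ± 0.14 with TAM (SD, n = 5). As a check of the labels, the dim probe set of Ppp3r1 fell from 5.32 ± 0.58 to 3.26 ± 0.21 (SD, n = 5, limma adjusted p = 0.0161 over all probe sets). The bright one read 9.80 ± 0.09 and 9.67 ± 0.04 and did not pass (0.553). Their places against the floxed exons were not mapped, so this check is partial.

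Dusp5, the nuclear phosphatase specific for ERK, had the largest difference of the 8 members and was the one called in both fits. It measured 6.73, 6.60, 6.87, 6.53 and 7.58 log2 units in the OIL arrays 204, 206, F3.1, F3.2 and F3, and 7.83, 8.27, 8.29, 8.01 and 8.64 in the TAM arrays of the same order. Every TAM array lay above every OIL array, and OIL F3 was the highest OIL array. The OIL mean of 6.86 ± 0.42 (SD, n = 5) and the TAM mean of 8.21 ± 0.31 lay 1.35 apart, or 2.54-fold (95% interval 0.88 to 1.81, limma adjusted p = 0.0282). With the label as a block the adjusted p was 0.00356. Without OIL F3 the difference was 1.52 (limma adjusted p = 0.00471). Leaving out OIL 204, OIL 206, OIL F3.1, OIL F3.2, TAM 206 or TAM F3.1 moved the adjusted p of the limma fit without a block past the threshold of 0.05, to 0.051 to 0.0938, while the difference stayed between 1.24 and 1.52 for any array left out.

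Dusp4, a nuclear phosphatase of ERK and JNK, read 5.45, 5.19, 5.65, 5.48 and 6.16 in OIL and 6.79, 7.42, 7.0, 5.75 and 7.10 in TAM, in the same order of labels. TAM F3.2 stood apart as the one TAM array within the OIL range. The difference was 1.23 (5.59 ± 0.36 against 6.81 ± 0.63, SD, n = 5, interval 0.59 to 1.87). It did not pass in limma without a block (adjusted p = 0.106) and passed with it (adjusted p = 0.0426). Without TAM F3.2 it was 1.49 and passed without a block too (limma adjusted p = 0.0176). Of the 10 fits without a block that left out 1 array, only this 1 passed (limma adjusted p up to 0.256 in the others). With the block Dusp4 passed without the pair F3.2 and lost its call without any of the other 4 pairs (limma adjusted p up to 0.143).

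Dusp1, the immediate early phosphatase induced by growth factors and stress, was 7.71, 7.16, 7.45, 7.09 and 7.24 in OIL and 8.24, 7.81, 8.50, 8.01 and 7.75 in TAM. The groups did not overlap, with the lowest TAM array just above the highest OIL array. The difference was 0.74 or 1.67-fold (7.33 ± 0.25 against 8.06 ± 0.31, SD, n = 5, interval 0.37 to 1.10), which did not pass without a block (limma adjusted p = 0.0891) and passed with it (adjusted p = 0.0131). With the block Dusp1 kept its call whichever of the 5 pairs was left out.

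Dusp2, a nuclear phosphatase abundant in activated lymphocytes, differed little. It was 9.50, 9.57, 9.34, 9.49 and 9.39 in OIL and 9.41, 9.72, 9.62, 10.06 and 9.35 in TAM, and the ranges overlapped. The difference of 0.17 had an interval of -0.11 to 0.45 and did not pass (limma adjusted p = 0.62, and 0.362 with the block). Without TAM F3.2, the brightest array, it was 0.065.

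**Figure D1:**
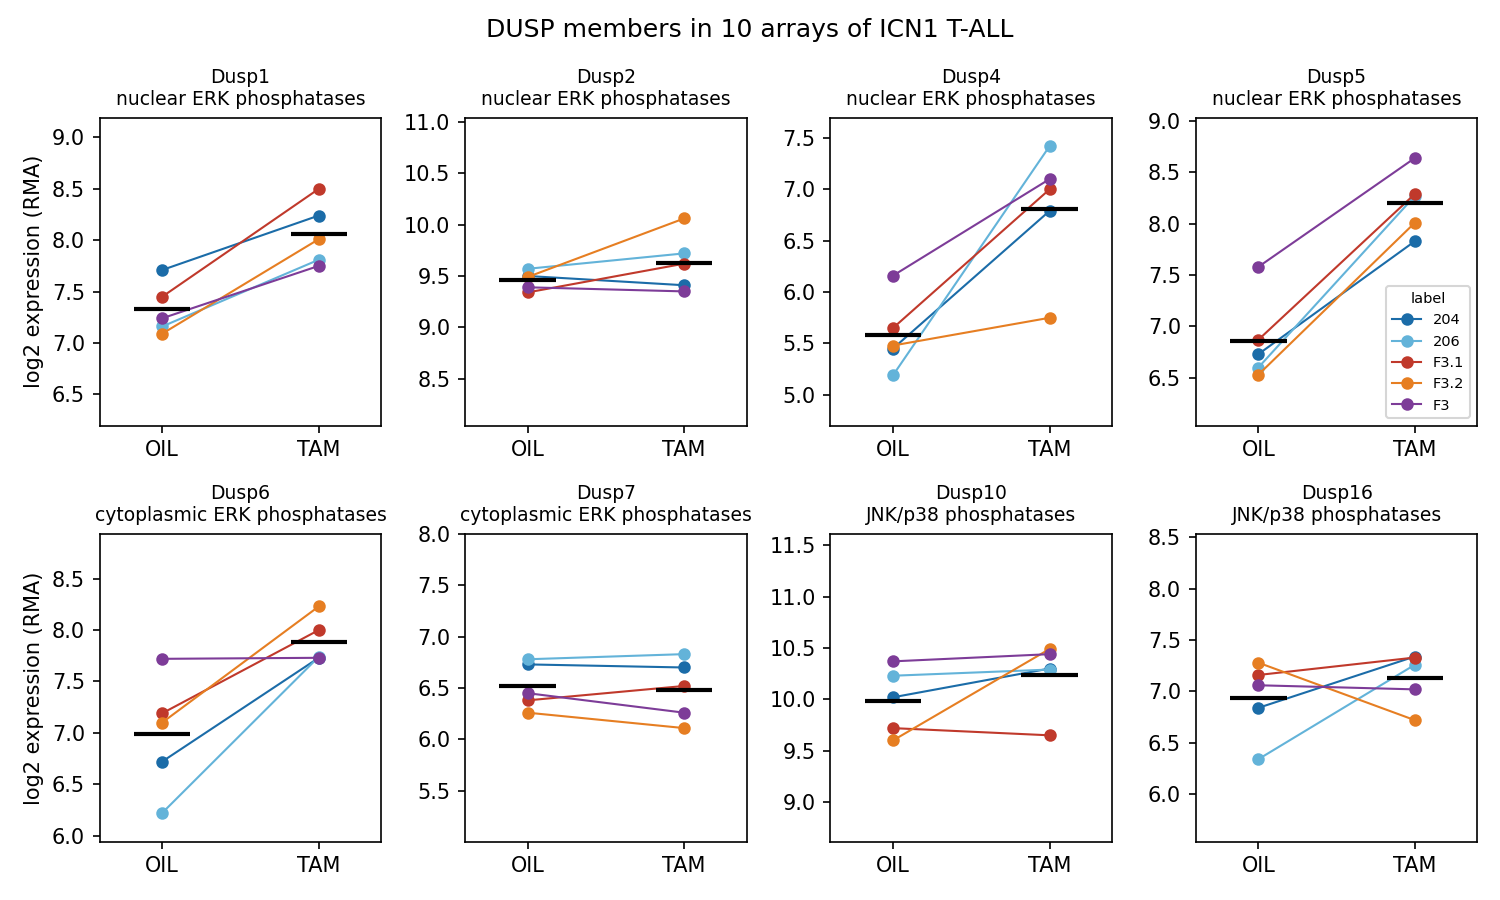
Log2 expression of the 8 members in each array, OIL at the left and TAM at the right of each panel, with a line joining the arrays of 1 label and black bars for the group means (n = 5). All panels span the same number of log2 units. The lines of Dusp1, Dusp4 and Dusp5 slope upward for 5 of 5 labels, and the F3 line of Dusp6 is nearly flat.

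Of the cytoplasmic ERK phosphatases, Dusp6, the classic feedback phosphatase of the ERK pathway, was 6.72, 6.22, 7.19, 7.10 and 7.72 in OIL and 7.73, 7.74, 8.0, 8.23 and 7.73 in TAM. OIL F3 lay just under the lowest TAM arrays, at 7.72 against 7.73, so the groups barely stayed apart. The TAM arrays were also the more alike, with an SD of 0.22 against 0.56 in OIL (n = 5). The difference of 0.90 or 1.86-fold (interval 0.36 to 1.43) did not pass in limma without the block (adjusted p = 0.153) or with it (adjusted p = 0.0537). The label pairs 204, 206, F3.1, F3.2 and F3 differed by 1.02, 1.52, 0.81, 1.13 and 0.0038. Leaving out OIL F3 gave 1.08 (limma adjusted p = 0.0561), and with the block and without the pair F3 it was 1.12 and passed (adjusted p = 0.021).

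Dusp7, also a cytoplasmic phosphatase that prefers ERK, was close in both groups. It measured 6.73, 6.78, 6.38, 6.26 and 6.45 in OIL and 6.70, 6.83, 6.52, 6.11 and 6.26 in TAM, so that each label kept nearly its own level in both groups. The difference was -0.04 (interval -0.37 to 0.30, limma adjusted p = 0.955, and 0.793 with the block). Its 2 other probe sets differed by 0.04 and -0.01, and the second was dim, at 4.41 in OIL and 4.40 in TAM.

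The JNK and p38 phosphatases were represented by Dusp10 and Dusp16. Dusp10, which limits JNK signalling in T cells, was 10.02, 10.23, 9.72, 9.60 and 10.37 in OIL and 10.30, 10.29, 9.65, 10.49 and 10.44 in TAM. The ranges overlapped. TAM F3.1 lay as low as the lowest OIL arrays, and OIL F3 lay above TAM 204 and TAM 206. The difference was 0.25 (interval -0.17 to 0.67, limma adjusted p = 0.648, and 0.327 with the block). The mean of both probe sets gave 0.40 (limma adjusted p = 0.257), leaving out TAM F3.1 gave 0.39 (0.373), leaving out OIL F3.2 gave 0.15 and, with the block, 0.085 without the pair F3.2. A second, dimmer probe set of Dusp10 read 5.85, 6.09, 5.95, 5.69 and 5.94 in OIL and 6.40, 6.56, 6.33, 6.74 and 6.27 in TAM. These groups did not overlap, and the difference of 0.56 (interval 0.33 to 0.79) did not pass over all probe sets in limma without a block (adjusted p = 0.106) or with it (0.0558). Which transcript forms of Dusp10 each probe set reads was not determined here.

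Dusp16, a JNK phosphatase that shuttles between nucleus and cytoplasm, was 6.84, 6.34, 7.16, 7.28 and 7.06 in OIL and 7.34, 7.26, 7.33, 6.72 and 7.02 in TAM. It was higher in TAM for 204, 206 and F3.1 and lower for F3.2 and F3. The difference was 0.20 (interval -0.21 to 0.61, limma adjusted p = 0.71, and 0.569 with the block). It was 0.05 without OIL 206 and 0.30 without TAM F3.2, and with the block 0.019 without the pair 206 and 0.39 without F3.2, none of which passed. Its other probe set was at 2.63 in OIL and 2.75 in TAM, under the limit for dim genes.

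**Figure D2:**
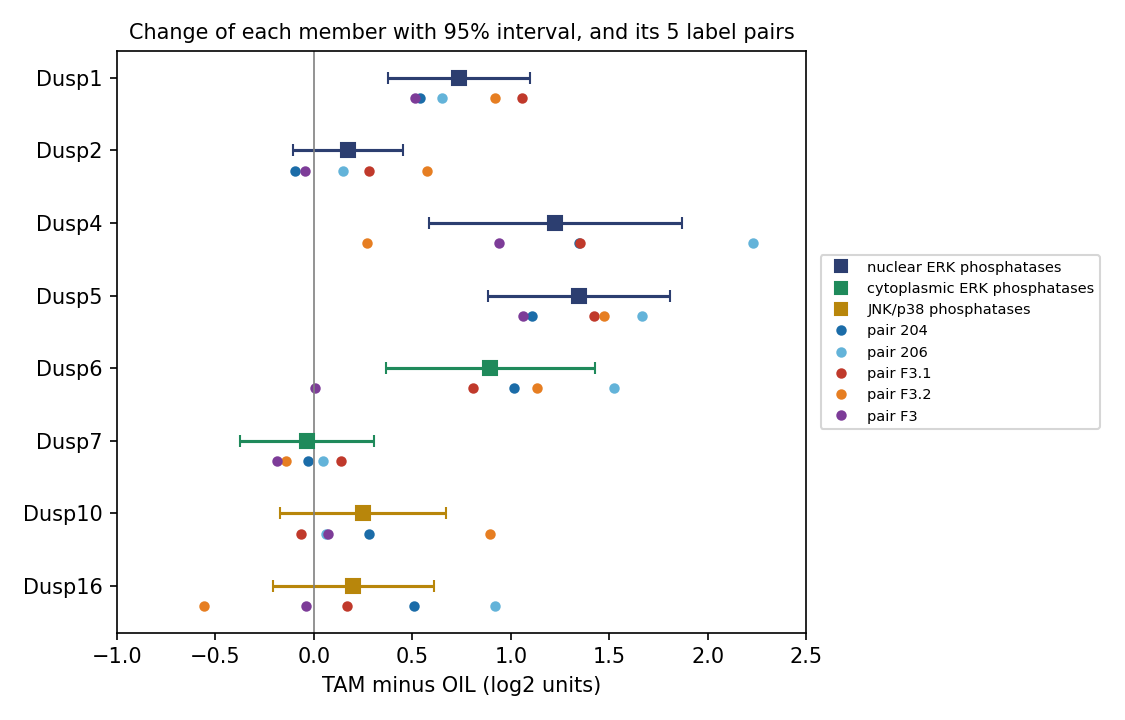
TAM minus OIL difference of each member in log2 units, with squares for the mean difference, bars for the 95% interval of the limma fit without a block, and small points for the 5 label pairs (n = 5 arrays a group). The intervals of Dusp1, Dusp4, Dusp5 and Dusp6 lie above 0, and those of the other 4 members include it.

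Counted together, 1 of the 8 members rose without a block, against 0.298% of all 12735 genes tested, and 3 rose with it, against 1.65%. Without adjustment 4 of 8 had a p under 0.05, all higher in TAM, as did 13% of all genes in either direction. Dusp1, Dusp5 and Dusp6, 3 of 8, had every TAM array above every OIL array, against 1.27% of genes, and 4 of 8 were higher in 5 of 5 label pairs, against 8.4%. Without OIL F3 the difference of Dusp1 was 0.71 (limma adjusted p = 0.12) and that of Dusp4 1.37 (0.0791), and Dusp5 stayed the 1 member called. Dusp2, Dusp7, Dusp10 and Dusp16 then differed by 0.16, -0.05, 0.34 and 0.23 (limma adjusted p = 0.411 or above). The median change was 0.49 over the members and -0.03 over all genes tested. By class the medians were 0.98 for the 4 nuclear ERK phosphatases, 0.43 for the 2 cytoplasmic ones and 0.22 for the 2 of JNK and p38. The differences of single members spanned 0.17 to 1.35 in the nuclear class, -0.04 to 0.90 in the cytoplasmic class and 0.20 to 0.25 in the third. These medians and spans rest on the brightest probe set of each gene. The dimmer Dusp10 probe set differed by 0.56, and the mean of both by 0.40. Fitted over all probe sets, none of the 12 passed without a block, where 0.0733% of 45037 did, and those of Dusp1 and Dusp5 passed with it (limma adjusted p = 0.0170 and 0.00545), where 1.3% did.

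Whether members of different classes changed unequally was tested on the difference between their log2 values within each array, for all 20 pairs of members of different classes. Of these, 9 had a two-sided exact permutation p under 0.05 and 0 passed after Benjamini-Hochberg adjustment over the 20. Each of the 9 set Dusp1, Dusp4, Dusp5 or Dusp6 against Dusp2, Dusp7, Dusp10 or Dusp16. The pairs share members and arrays, so these are not 9 separate results. The change of Dusp5 exceeded that of Dusp7 by 1.38, that of Dusp10 by 1.10 and that of Dusp16 by 1.15 (exact permutation p = 0.00794, 0.00794 and 0.0159, adjusted p = 0.0529 for each), in 5 of 5 label pairs each. Dusp4 likewise exceeded Dusp7 by 1.26 and Dusp16 by 1.03, and Dusp1 exceeded Dusp7 by 0.77. Each of these had an exact permutation p of 0.0159 and the same adjusted p of 0.0529, in 5 of 5 label pairs. The smallest p that 5 against 5 arrays can give is 0.00794. Dusp5 exceeded Dusp6 by 0.45 (exact permutation p = 0.103, adjusted p = 0.188), and Dusp1 differed from Dusp6 by -0.16 (p = 0.659, adjusted p = 0.732). In the other direction the change of Dusp2 minus that of Dusp6 was -0.72 (exact permutation p = 0.0317, adjusted p = 0.0794), with Dusp2 below in 5 of 5 label pairs. No pair within a class was tested. Without OIL F3, and likewise without TAM F3.2, 7 of the 20 pairs passed, with lowest adjusted exact permutation p-values of 0.0397 and 0.0454, whereas without any other array 0 passed. Those passing without OIL F3 included Dusp2 below Dusp6 (-0.92), and those passing without TAM F3.2 included Dusp4 above Dusp6 (0.68).

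Treatment took up unequal parts of the members' spread over the 10 arrays, as a description with no test. It held 80.7% of the sum of squares for Dusp5, 67.9% for Dusp1, 63.8% for Dusp4 and 58.0% for Dusp6. The treatment has 1 of the 9 degrees of freedom, or 11.1%, and the label 4, or 44.4%, so a label share is to be read against the latter. For Dusp7 the treatment held 0.57% and the label 92.9%. The label held 57.4% for Dusp10 and 48.5% for Dusp2, the last close to its part of the degrees of freedom. For Dusp16 66.7% stayed with neither treatment nor label.

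**Figure D3:**
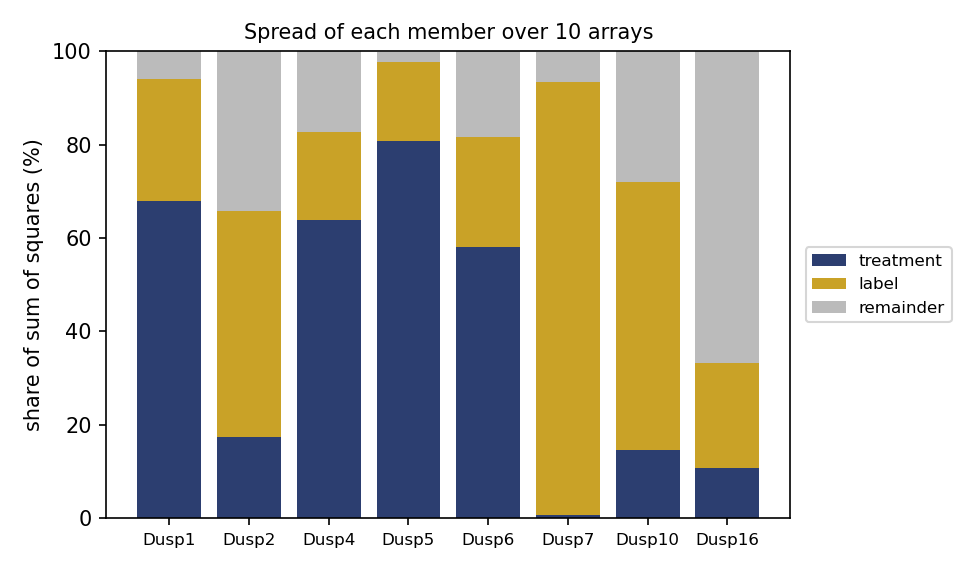
Share of the sum of squares over 10 arrays, in percent, that lies between treatments, between labels and in the remainder, for each member. Treatment, with 1 of 9 degrees of freedom, holds 58.0% to 80.7% for Dusp1, Dusp4, Dusp5 and Dusp6, and the label, with 4 of 9, holds 92.9% for Dusp7.

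The change was then compared between the labels 204 and 206 and the 3 F3 labels. Dusp5 differed from OIL by 1.38 in the first and 1.32 in the second, and Dusp1 by 0.59 and 0.83. Dusp4 differed by 1.79 and 0.85, Dusp6 by 1.27 and 0.65, and Dusp16 by 0.71 and -0.14. The limma interaction called 0 of the 8, and 0% of all genes tested, with an adjusted p of 0.998 for each member. Without adjustment 1 of the 8 had a p under 0.05, Dusp16, whose changes differed by -0.86 (interval -1.47 to -0.24), as did 2.72% of all genes.

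The genes whose profile over the 10 arrays was most like that of Dusp5 were Hdac7, a class IIa histone deacetylase (Pearson r = 0.97), Ptk2b, the calcium-responsive kinase PYK2 (r = 0.97), and Dusp11, a phosphatase acting on RNA (r = 0.97). Hdac7 and Ptk2b were themselves called, with rises of 0.53 and 0.88 (limma adjusted p = 0.04 and 0.0159). For Dusp1 the closest were Slc38a1, Fchsd2 and Magix (r = 0.94, 0.93 and 0.93), for Dusp4 Mab21l2, Smc4 and Sec63 (0.96, 0.94 and 0.94), and for Dusp6 Ddn, Ap1s2 and Plekhg2 (0.93 each). The closest to Dusp2 were Ncoa5, Hspa12a and Wdr11 (0.95, 0.95 and 0.91), to Dusp7 Pimreg, Yif1b and Osgepl1 (0.95 each), and to Dusp16 Zfpl1, Zbtb21 and Tent2 (0.91, 0.90 and 0.90). Dusp10 was most like Ptcra, the pre-T cell receptor chain (0.97), Rbm39 (0.96) and Huwe1 (0.96). These correlations describe 10 arrays that share labels and treatment, and genes picked as the closest of 12735 have high values by choice.

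Other ERK target and feedback genes were read beside the phosphatases, as 21 tested members of a list of 25. Without a block 0 were called and 5 of 21 had a raw p under 0.05, against 13% of all genes. With the block 2 of 21 rose, against 1.65% of all genes, and 0 fell. The blocked count was 0 without the pair 204, 206 or F3, 1 without F3.1 and 3 without F3.2. The risers were Phlda1 (0.53, blocked limma adjusted p = 0.0204, and 0.219 otherwise) and the pseudokinase Trib1 (0.45, 0.0389 and 0.118). The other probe set of Trib1 differed by 0.23. The list median was 0.17, with 14 of 21 higher, against -0.03 over all genes. Egr1, an early transcription factor induced by ERK, went from 9.37 ± 0.96 to 10.65 ± 0.40 (SD, n = 5), which is 1.28 apart and did not pass (limma adjusted p = 0.225, and 0.0801 with the block). The ETS factor Etv5 differed by 1.10 (adjusted p = 0.401, and 0.169 with the block) and Fos by 0.57 (0.646 and 0.313). Among feedback inhibitors of the Ras pathway, Spred1 differed by 0.38 (0.235 and 0.093), while its other probe sets gave 0.09 to 0.58, and Spry1 by -0.22 (0.64 and 0.325).

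**Figure D4:**
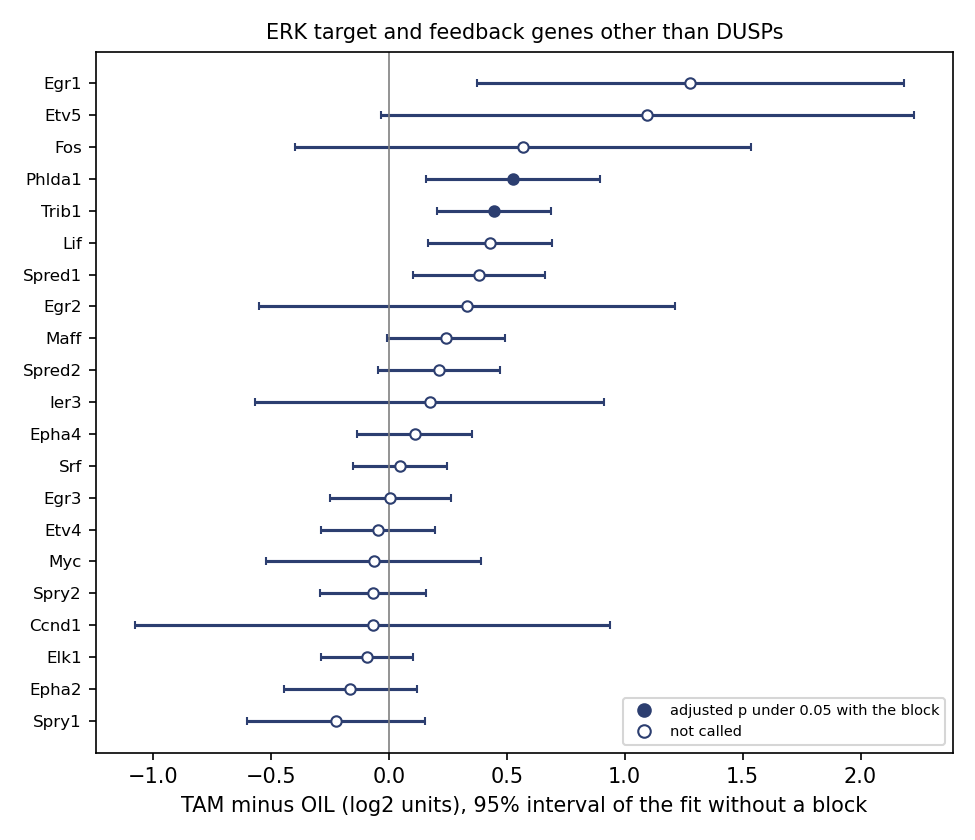
TAM minus OIL difference in log2 units for the 21 tested ERK target and feedback genes other than DUSPs, sorted by size, with 95% intervals of the limma fit without a block (n = 5 arrays a group). Filled points mark Phlda1 and Trib1, called with the block, and the widest intervals belong to Etv5, Ccnd1, Fos, Egr1 and Egr2.

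The measured genes of the kinase cascades that these phosphatases act on held no called gene. Of 15 tested genes of the Ras-ERK cascade 0 were called in either fit, with 1 raw p under 0.05 without a block and a median of 0.05. Of 23 genes of the JNK and p38 cascade 0 were called in either fit, with 3 such raw p-values and a median of 0.04. Over all genes tested, 13% had such a raw p-value. Mapk8 (JNK1) differed by -0.04 (limma adjusted p = 0.883) and Mapk14 (p38 alpha) by -0.03 (0.906), while other probe sets of Mapk8 differed by -0.18 to 0.37 and those of Mapk14 by -0.19 to 0.21.

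Other phosphatases were read from lists chosen in the same way. The 2 further typical MAP kinase phosphatases, Dusp8 and Dusp9, had 0 called in either fit and a median of -0.12. Of 15 tested atypical dual-specificity phosphatases and related slingshot and styx genes 0 were called without a block. In that fit 4 had a raw p under 0.05, against 13% of all genes. With the block 1 rose, against 1.65% of all genes. That gene was Dusp11, at 0.40 (limma adjusted p = 0.102, blocked 0.0224), and 0.40 at its other probe set. With the block 0 of the list were called without the pair 204, 206, F3 or F3.1, and 1 without F3.2, while without a block 1 was called when OIL F3 was left out. Dusp3 differed by -0.03 and Dusp22, which acts on LCK in T cells, by 0.14 (limma adjusted p = 0.939 and 0.761), and the other 2 probe sets of Dusp3, both dim, by -0.33 and -0.14. Of 9 other phosphatases that act on MAP kinases 0 were called in either fit, with no raw p under 0.05 and a median of 0.00047.

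Dusp1 also belongs to the genes that cells induce rapidly under stress, which includes tissue dissociation. Of 18 tested dissociation and stress genes without DUSPs, 2 rose without a block (0.298% of all genes did) and 0 fell, and with it 4 rose (1.65% of all genes did) and 1 fell. The count without a block was 1 in 8 of the 10 fits with an array left out, and the blocked count of 5 became 2 or 3 without any 1 pair. The list median was 0.21, with 14 of 18 higher, and Egr1, Fos, Fosb and Ier3 stand in both this list and that of ERK targets. Nr4a1, an orphan nuclear receptor induced by antigen receptor signals, rose by 2.50 (limma adjusted p = 0.00513), and Junb by 0.53 (0.0479). Zfp36, a factor of mRNA decay, rose by 0.92 (0.0397) and Ier2 by 0.64 (0.0443) only with the block (0.248 and 0.0534 without), and Cebpb fell by 0.83 (0.038) with it (0.43 without). The summed signal of the list was 13.88 to 14.37 log2 units in OIL and 14.27 to 14.55 in TAM, and its part in the results for the phosphatases was not tested.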

How the data were processed

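RNA of sorted leukemic cells was measured on 10 oligonucleotide arrays, 5 OIL and 5 TAM. The authors deposited log2 values, for which the submitters' processing notes name RMA, with a version not given in the sources used. Array medians lay between 5.07 and 5.13. The number of arrays sets the precision.

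Names came from the platform's annotation, updated by Entrez ID through RefSeq (GRCm38.p6), with 34958 probe sets of 1 symbol, 932 of several and 9211 of none. For a gene with several, the brightest probe set on average was used. After the dimmest 30% were removed, 12735 genes remained. The groups were compared with limma 3.58.1 in R 4.3.3, with a threshold of 0.05 on Benjamini-Hochberg adjusted p-values, with 8 residual degrees of freedom, or 4 with the label as a block. All probe sets were fitted likewise. The arrays were paired by label. Between the arrays of a label, deviations from the group means correlated at 0.76 for 204, 0.75 for 206, 0.80 for F3, 0.58 for F3.1 and 0.18 for F3.2. All lay above the limit of 0.1, and F3.2 was least. Correlations between arrays of different labels were not computed, and the first principal component separated 204 and 206 from the F3 labels. These values therefore cannot tell pairing by label from likeness between 204 and 206 or among the F3 labels. The 20 differences between classes were tested by exact permutation in Python 3.11.15. Genes to name were all members, Ppp3r1, called members of fixed lists (at most 4 a direction), 9 tested genes set by name, and the 3 genes most correlated with each member. The members, lists and tests were chosen with earlier results of these data known, and the promoter motifs and windows shown after the expression values were seen. The limma fit and the permutation test were tested on simulated data. The alternatives tried were the block, other filters, probe sets, normalizations and variance models, and fits without single arrays. OIL F3 was also left out because it stood apart in these same data.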

Additional observations from a re-analysis of the deposited data

Results flagged for a closer look

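Of 24 sets of 5 values (12 probe sets in 2 groups), 1 held an array far from the others. TAM F3.1 read 9.65 for the brighter probe set of Dusp10, below the other TAM arrays, a gap of 0.758 of the group's range against a critical value of 0.71. Chance marks about 1 in 20 such sets. Without this array the Dusp10 difference was 0.39 in place of 0.25 (limma adjusted p = 0.373). In the dimmer Dusp10 probe set the same array read 6.33, within the TAM range of 6.27 to 6.74.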

How the results depend on the processing

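The replicate block (label as a term) left the differences as they were and added calls for Dusp1 (0.74) and Dusp4 (1.23), so that 3 members were called in place of 1, and it changed no other member's call. The genes called over the whole table numbered 60 without it and 431 with it. They were 26 with the mean of a gene's probe sets, 25 with the most variable probe set, 10 with OIL F3.1 and OIL F3.2 averaged, and 8 to 54 with 1 array left out. Averaging OIL F3.1 and OIL F3.2 gave 1.30 for Dusp5 (limma adjusted p = 0.0873) and 0 members called, and fitting each probe set without a filter gave 1.35 (0.056) and 0. With the most variable probe set Dusp7 turned to 0.035. With single arrays left out Dusp5 ranged from 1.24 to 1.52 and was called in 4 of 10 cases (uncalled at 1.26 without OIL F3.2 and 1.32 without TAM F3.1, among others), Dusp4 from 1.08 to 1.49, Dusp7 from -0.12 to 0.057 (0.0297 without OIL 206), and 0 to 2 members were called. In fits added after seeing the data, with the replicate block and without the pair 204, 206, F3, F3.1 or F3.2, the members called were 2, 2, 3, 2 and 3, and Dusp1 was 0.79, 0.76, 0.79, 0.66 and 0.69 and called in each. Dusp4 was called without F3.2 (1.47), Dusp6 without F3 (1.12), and Dusp7 turned to 0.0029 without F3. Of 240 repeats of the differences between classes 9 reversed, in small differences. The repeats by label pair kept each difference unchanged, so they could not reverse. With single arrays left out, Dusp1 minus Dusp6 ranged from -0.37 to 0.0016, Dusp2 minus Dusp10 from -0.22 to 0.047 (-0.19 without OIL F3 and 0.029 without OIL F3.2) and Dusp2 minus Dusp16 from -0.24 to 0.15 (0.025 when TAM F3.1 and -0.0743 when OIL F3 was left out), and with the mean of probe sets the last was 0.011. A sign-flip test over the label pairs cannot give p below 0.0625. The cause of these shifts was not tested, apart from the fewer arrays or other probe sets that define them. No dim-gene filter, a 50% filter, median centring, further quantile normalization and a trended robust variance kept the call of Dusp5 as the one member called. Signal limits Dusp16's second probe set, which lies under the dim limit.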
